A study of Homo sapiens with 38 samples.

Results

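The comparison described here is a dose step of the RAF inhibitor GSK436 (GSK2118436, dabrafenib) in drug-resistant melanoma cells. It sets 3 arrays of the clone A375 16R6-4 at 1 µM GSK436 alone against 3 arrays of that clone at 0.1 µM GSK436 alone, chosen by the sample titles, which makes 6 of the 38 arrays of the series. A375 is a human melanoma cell line, and 16R6-4 is 1 clone derived from it that resists GSK436, so its features are those of a single clone. The series measured RNA on one-colour Affymetrix arrays in 14 groups, made of the clone (called resistant here) and its unselected parent (called parental), each exposed to DMSO, GSK436, the MEK inhibitor GSK212 (GSK1120212, trametinib) or both drugs. Exposure lasted 24 h in every group. Other groups used below were the resistant DMSO arrays (n = 2), the resistant arrays at 0.1 and 1 µM GSK436 in the presence of 10 nM GSK212 (n = 3 each), and the parental arrays at 0.1 and 1 µM GSK436 (n = 2 each). The labels do not say whether replicates were separate cultures, so each p-value measures only the spread between these samples. In the main limma fit that spread is pooled over all 14 groups, not taken from the groups compared alone.

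GSK436 blocks the mutant BRAF kinase that drives MEK, ERK and growth in cells such as A375, and the transcripts of ERK feedback genes fall when that pathway is silenced. A separate pathway, the integrated stress response, senses amino acid shortage, unfolded proteins and other stresses through kinases that phosphorylate the translation factor eIF2-alpha. Translation of the transcription factor ATF4 then increases, and ATF4 with its partners of the C/EBP family raises genes for amino acid synthesis, amino acid uptake and tRNA charging, together with regulators such as DDIT3 (CHOP), CHAC1 and DDIT4. Transcript arrays read the output of this pathway but not the phosphorylation that starts it.

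The resistant 0.1 µM arrays were not all alike. Replicate 3 had a ratio of 3' to 5' actin control signal of 37.4, a measure that rises as RNA shortens, while replicates 1 and 2 had 4.65 and 17.8 and the 1 µM arrays had 20.5, 7.94 and 4.25. Its median signal over probe sets was 46.3, against 23.8 to 30.2 on the other 5 arrays, and it correlated with those at 0.888 to 0.903 across genes, where the others correlated with each other at 0.945 to 0.955. The mean actin ratio was 10.9 ± 8.54 (SD, n = 3) at 1 µM and 19.9 ± 16.5 (SD, n = 3) at 0.1 µM, a difference within the spread between arrays (exact permutation test, two-sided p = 0.6, smallest possible p = 0.1). Counts that rest on replicate 3 are therefore given with and without it, and the part of RNA quality in them was not tested. The label of a melanoma line was checked against melanocyte genes. Of 11 lineage markers measured, MITF (mean signal 1392 at 0.1 µM and 1028 at 1 µM), PRAME (482 and 478) and PAX3 (128 and 140) were well represented in the clone, while SOX10 (9.70 and 6.68), MLANA (7.63 and 10.7), S100B, TYR and PMEL were at or near the low end of the scale. For other cell types, the 7 leukocyte markers summed to 83.1 to 239 at 0.1 µM and 119 to 143 at 1 µM, and the 9 endothelial and fibroblast markers to 154 to 439 and 122 to 247. The 9 epithelial markers summed to 9674 to 15059 and 7805 to 8729, most of it keratin KRT18. In such bulk RNA, fewer cells of a type and less RNA per cell cannot be told apart. The part of these marker levels in the dose step was not tested.

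Between 0.1 and 1 µM GSK436, 16 genes were called higher in resistant cells, and 9 of these were on lists of amino acid supply and stress genes. ASNS, DDIT4, SLC7A11, NUPR1 and CTH rose between 3.80-fold and 5.46-fold, and CHAC1 and INHBE rose from low signals. None of the ERK output genes was called, which is near the 0.111% of all genes called and says little about them. Of 18063 genes tested with limma, 20 were called (0.111%). A call needed an adjusted p under 0.05 together with a change of 1 or more on the log2 scale, up or down. Of these, 16 were higher at 1 µM (0.0886%) and 4 lower (0.0221%). Adjusted p alone passed for 26 genes (0.144%), 21 of them higher (0.116%), and an unadjusted p under 0.05 for 1477 genes (8.18%), 597 higher (3.31%) and 880 lower (4.87%). The number called depended on which arrays were used and how they were weighted. It was 816 with array weights (427 higher and 389 lower, 19 of the 20 among them) and 8 without arrays of an actin ratio above 20, all 8 among the 20. Array weights follow the scatter of each array around its group rather than RNA quality. At 0.1 µM they were 0.657, 7.82 and 0.221 for replicates 1, 2 and 3. The 816 calls therefore lean mostly on replicate 2 of that group. The median log2 fold change of all genes was -0.07. On all 20 called genes the 3 arrays at one dose did not overlap the 3 at the other, which was the case for 5.64% of all genes on the higher side and 7.43% on the lower side. All fold changes are on the scale of log2(signal + 2.8), with standard errors after the ± sign, and the number of arrays limits their precision.

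**Figure D1:**
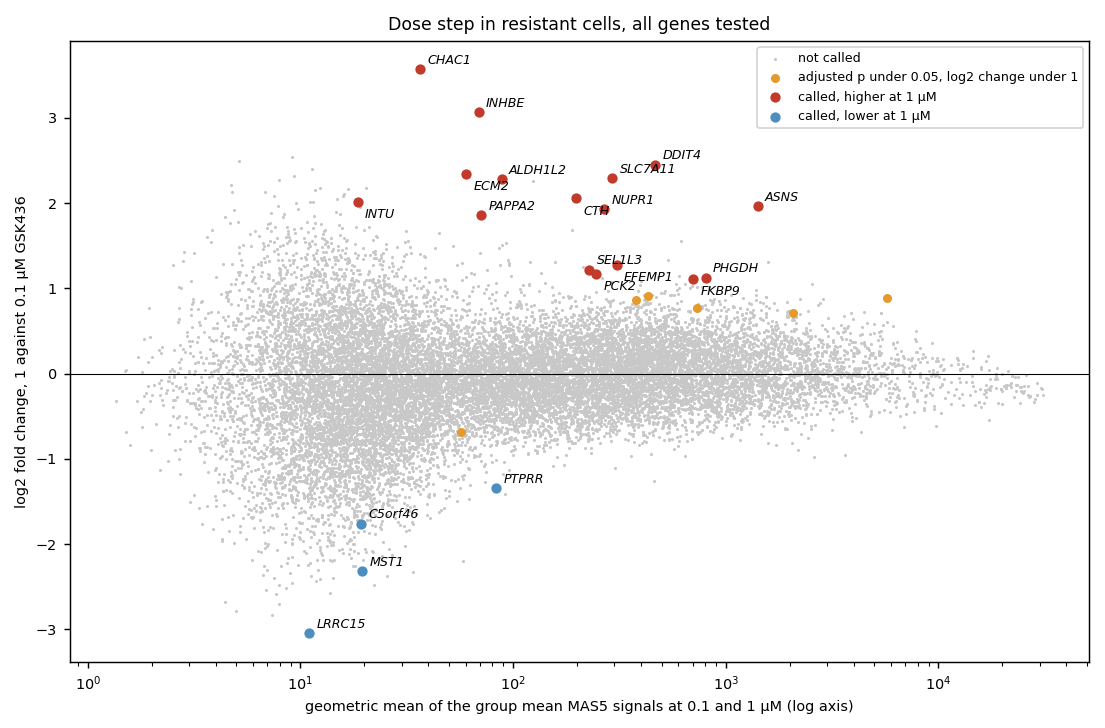
Log2 fold change between 1 and 0.1 µM GSK436 in resistant cells (y axis) against the geometric mean of the group mean signals (x axis, log scale), 1 point per gene for 18063 genes. Red and blue points are the 16 genes called higher and the 4 called lower, and orange points the 6 genes with an adjusted p under 0.05 and a smaller fold change. The called higher genes lie across the range of signals up to ASNS, whereas 3 of the 4 called lower genes lie at low signals.

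Without replicate 3 of the 0.1 µM group 15 genes were called, 14 higher and 1 lower, and 13 of them were among the 20. TSC22D3 (1.77 ± 0.35, adjusted p = 0.0218) and AQP3 (1.14 ± 0.24, adjusted p = 0.0465) entered, and ECM2, EFEMP1, INTU, SEL1L3, MST1, C5orf46 and PTPRR left. Of the 20 genes, 10 kept their call when any 1 of the 6 arrays was left out, namely ASNS, DDIT4, SLC7A11, NUPR1, CTH, CHAC1, INHBE, ALDH1L2, PHGDH and LRRC15. Of these 10, INHBE (adjusted p = 0.0557), ALDH1L2 (0.0844), PHGDH (0.0844) and LRRC15 (0.246) were not called without arrays of an actin ratio above 20. A fit of these 6 arrays alone, which has far fewer residual degrees of freedom, called 5 genes, ASNS, CTH, DDIT4, NUPR1 and SLC7A11, and these were called in every alternative that was run.

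Regulators of the integrated stress response were among the called genes. CHAC1, an enzyme that degrades glutathione and a target of ATF4, had signals of 5.83, 5.66 and 18.3 at 0.1 µM and 135, 150 and 121 at 1 µM. All 3 arrays at 1 µM were far above all 3 at 0.1 µM, and CHAC1 rose by 3.57 ± 0.63 (adjusted p = 0.00305). Because 2 of its 0.1 µM signals lay under the 25th percentile of all signals (9.88), the size of this rise is poorly determined, and it was 4.01 ± 0.68 without replicate 3. INHBE, the beta-E subunit of activin, went from 13.9, 19.0 and 37.4 to 194, 242 and 176. This rise of 3.06 ± 0.46 (adjusted p = 0.000374) started, like that of CHAC1, from signals near the pooled median of 34.88 or under it. DDIT4, also known as REDD1 and an inhibitor of the growth kinase complex mTORC1, had 253, 201 and 144 at 0.1 µM and 806, 1193 and 1283 at 1 µM. It was abundant at both doses and rose by 2.45 ± 0.21 (5.46-fold, adjusted p = 1.4e-09). NUPR1, a small stress-induced chromatin protein, rose by 1.93 ± 0.21 (adjusted p = 9.81e-07), from 120, 117 and 176 to 584, 488 and 499.

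ASNS, asparagine synthetase, had the smallest adjusted p of the dose step. Its signals were 721, 713 and 714 at 0.1 µM and 2724, 2829 and 2862 at 1 µM, and it rose by 1.97 ± 0.14 (3.90-fold, adjusted p = 1.83e-11). Values within a dose differed by a small part of the gap between doses, and without replicate 3 of the 0.1 µM group the change was 1.96 ± 0.15. The promoters of ASNS, CHAC1 and CEBPG follow because each holds an 8-base sequence of the form TGATGNAA, the composite element that ATF4 and C/EBP proteins are known to bind. Sequences run 5' to 3' along the gene's strand from 250 bases before to 50 bases after a RefSeq start site (GRCh38.p14), and capitals mark the match. The ASNS window is chr7:97872359-97872658 on the minus strand, the CHAC1 window chr15:40953221-40953520 on the plus strand and the CEBPG window chr19:33373863-33374162 on the plus strand.
ASNS: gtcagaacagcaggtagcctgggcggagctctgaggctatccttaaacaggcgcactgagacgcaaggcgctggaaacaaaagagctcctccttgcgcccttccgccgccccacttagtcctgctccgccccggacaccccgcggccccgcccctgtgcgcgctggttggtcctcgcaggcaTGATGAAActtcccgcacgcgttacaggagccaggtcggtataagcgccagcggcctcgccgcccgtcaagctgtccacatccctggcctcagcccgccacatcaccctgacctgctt
CHAC1: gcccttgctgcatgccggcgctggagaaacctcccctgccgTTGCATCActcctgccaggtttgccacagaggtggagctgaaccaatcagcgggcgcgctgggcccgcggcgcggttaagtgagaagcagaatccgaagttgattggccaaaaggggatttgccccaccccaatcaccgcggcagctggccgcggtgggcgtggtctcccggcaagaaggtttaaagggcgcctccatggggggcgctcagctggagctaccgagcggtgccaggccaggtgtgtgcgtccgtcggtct
CEBPG: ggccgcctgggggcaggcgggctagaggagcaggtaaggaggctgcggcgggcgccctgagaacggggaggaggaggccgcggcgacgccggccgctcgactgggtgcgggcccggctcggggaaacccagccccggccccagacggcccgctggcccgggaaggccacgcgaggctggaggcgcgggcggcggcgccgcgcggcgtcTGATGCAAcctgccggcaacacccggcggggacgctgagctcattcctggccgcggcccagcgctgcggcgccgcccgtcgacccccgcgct
The match TGATGAAA began at position -68 from the ASNS start site, and TGATGCAA at -42 in CEBPG. In CHAC1 the match lay on the opposite strand, so that it reads TTGCATCA here, at -209. These are matches of letters in reference sequence, and binding was not measured.

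Searched on both strands, TGATGNAA occurred in 2.60% of the 20051 windows of tested genes, and in at least 1 window of 497 of 14156 genes (3.51%). It was found in 2 of the 11 called higher genes that had a window (ASNS and CHAC1), and in 0 of the 4 called lower genes. Among the measured members of the 4 lists on stress factors, amino acid synthesis, amino acid transport and tRNA charging, 19 of 50 genes with a window held it (38%). These lists hold classes of genes that ATF4 is known to raise and were chosen with earlier results known. That share therefore describes the lists and not the dose step. The AP-1 motif TGANTCA, bound by FOS and JUN family factors downstream of ERK, occurred in 8.01% of tested genes, in 0 of the 11 called higher genes and in 1 of the 4 called lower genes. That gene was LRRC15, with TGACTCA at -48. The E-box CACGTG, the site of MYC and USF factors, occurred in 11.2% of tested genes and in none of the called ones. Matches of different motifs can share bases, and the absence of a match says only that these letters were not in these windows.

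Of 23 measured genes of the integrated stress response list, 5 were called higher (CHAC1, INHBE, DDIT4, CTH and NUPR1), 0 were called lower, and 18 had a log2 fold change above 0, where 44.7% of all genes did. Of all genes, 0.0886% were called higher and 0.0221% lower. The list's median was 0.61, against -0.07 for all genes. Its 2 further members with an adjusted p under 0.05 were the C/EBP factors, which pair with ATF4 on DNA. CEBPB rose by 0.72 ± 0.12 (adjusted p = 0.00189), from 1681, 1744 and 1413 to 2767, 2569 and 2588, and CEBPG by 0.92 ± 0.20 (adjusted p = 0.0348), from 365, 380 and 208 to 591, 622 and 536. ATF4 itself had 3764, 5330 and 4915 at 0.1 µM and 6942, 7375 and 6824 at 1 µM. Its arrays did not overlap, but its difference of 0.61 ± 0.14 did not pass (adjusted p = 0.0716). DDIT3, the factor CHOP, stood at 159, 227 and 204 and then 367, 312 and 286, a difference of 0.71 ± 0.18 that did not pass either (adjusted p = 0.218).

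Members of the list did not move together throughout. Values above 0 that did not pass were those of the very-low-density lipoprotein receptor VLDLR (1.13 ± 0.30, adjusted p = 0.257), the bZIP factor JDP2 (1.06 ± 0.32, adjusted p = 0.44), ATF3 (0.49 ± 0.21) and the pseudokinase TRIB3 (0.40 ± 0.17). TRIB3, a feedback inhibitor of ATF4, was already abundant at 0.1 µM, with 809, 702 and 963 against 1182, 1030 and 1033. Its other probe set gave 0.96. Members with values below 0 were the bZIP factor ATF5 (-0.57 ± 0.27), the secreted hormone FGF21 (-0.37 ± 0.81) and the cytokine GDF15 (-0.09 ± 0.49), none of them called. GDF15 had 1461, 1068 and 868 at 0.1 µM and 931, 936 and 1289 at 1 µM, so the doses overlapped. Its 3 probe sets ranged from -1.22 to 0.51.

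**Figure D2:**
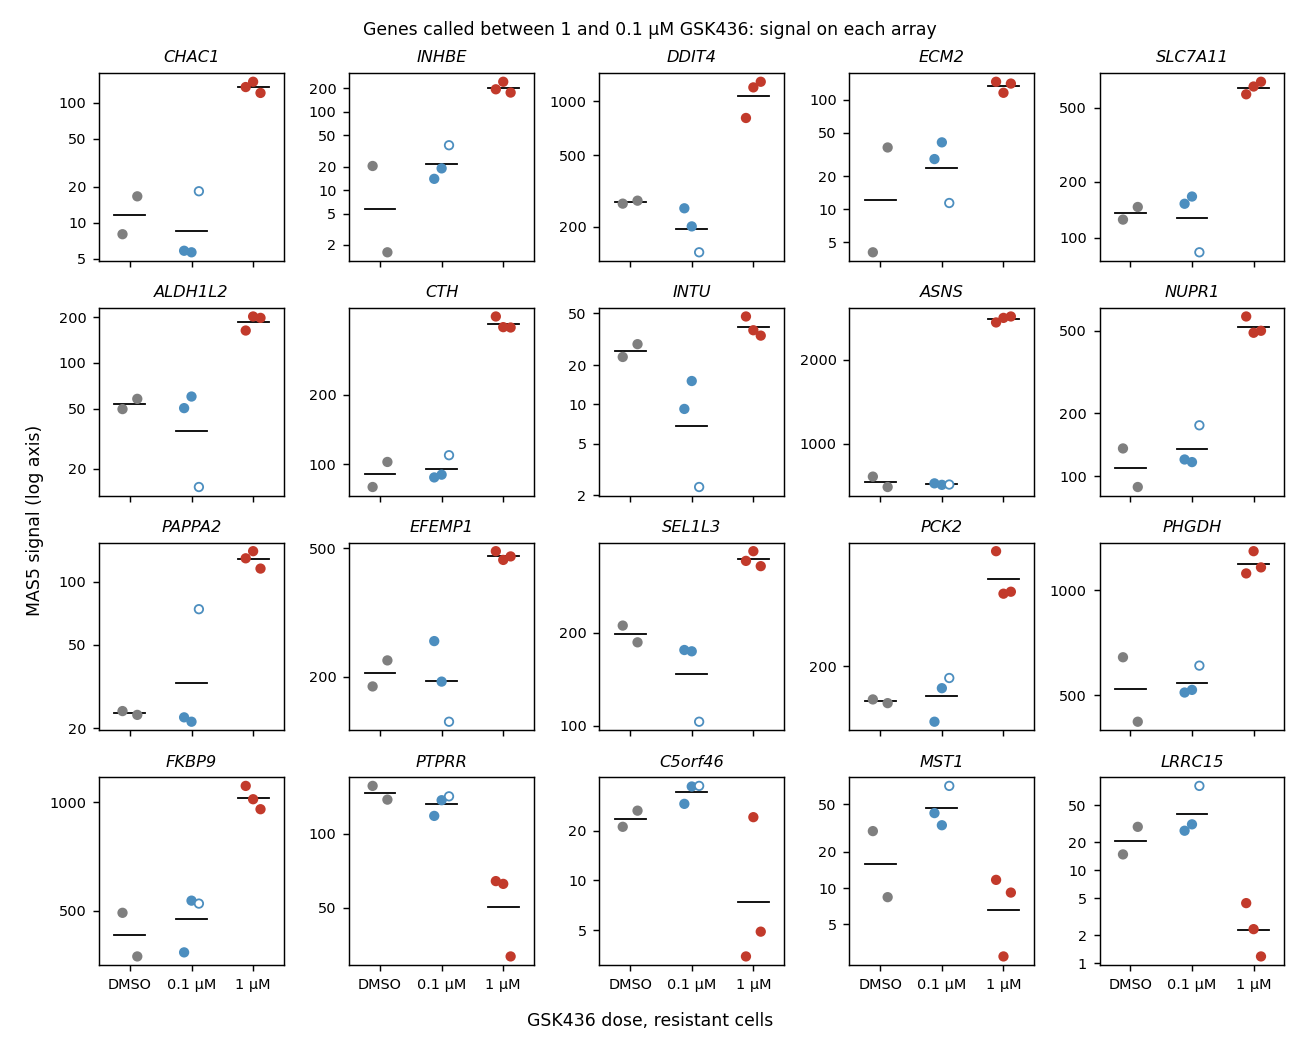
Signal on each array (y axis, log scale, a separate range in each panel) for the 20 called genes in resistant cells with DMSO (grey, 2 arrays), 0.1 µM GSK436 (blue, 3 arrays) and 1 µM GSK436 (red, 3 arrays). Bars are geometric means, and the open circle is replicate 3 of the 0.1 µM group. The red points lie apart from the blue points in every panel, and for ASNS, DDIT4, SLC7A11 and NUPR1 the grey points lie with or near the blue ones.

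Of 15 measured genes of amino acid synthesis 4 were called higher (ASNS, CTH, ALDH1L2 and PHGDH) and 0 lower, against 0.0886% and 0.0221% of all genes. The list's median was 0.37. The lowest values were those of the pyruvate carboxylase gene PC (-0.64 ± 0.68), MTHFD1L (-0.59 ± 0.81) and the argininosuccinate synthase gene ASS1 (-0.41 ± 0.75), none of them called. CTH, the enzyme that makes cysteine from cystathionine, had 87.9, 90.3 and 110 at 0.1 µM and 436, 392 and 391 at 1 µM, with no overlap and a rise of 2.06 ± 0.31 (adjusted p = 0.000281). ALDH1L2, a mitochondrial enzyme of folate metabolism, rose by 2.28 ± 0.33 (adjusted p = 0.000246), from 50.3, 60.0 and 15.1 to 164, 203 and 199. The low value was that of replicate 3, and without it the change was 1.72 ± 0.30. The 3 probe sets of ALDH1L2 ranged from 0.25 to 2.40, so the size of its change depended on the probe set. PHGDH, the first enzyme of serine synthesis, rose by 1.12 ± 0.20 (adjusted p = 0.00305), from 510, 519 and 609 to 1117, 1294 and 1163.

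The next enzyme of serine synthesis, PSAT1, rose by 0.89 ± 0.19 (adjusted p = 0.0286), from 4420, 4958 and 3378 to 8602, 7832 and 7034, which is under the fold threshold. Its other probe set gave 1.91. The last enzyme of that pathway, PSPH, did not pass (0.57 ± 0.22, adjusted p = 0.593), nor did the cystathionine synthase CBS (1.02 ± 0.33, adjusted p = 0.515) or the mitochondrial folate enzyme MTHFD2 (0.37 ± 0.15, adjusted p = 0.602). MTHFD2 was abundant at both doses, with 5659, 5698 and 5572 at 0.1 µM and 7898, 7185 and 6851 at 1 µM. Its other probe set gave 0.91. The probe sets of PSPH ranged from -0.07 to 1.08 and those of CBS from 0.03 to 1.02. PCK2, the mitochondrial enzyme that feeds serine synthesis from oxaloacetate and a member of none of the lists, rose by 1.17 ± 0.20 (adjusted p = 0.00305), from 135, 171 and 184 to 447, 332 and 336. Without replicate 1 of the 1 µM group, the highest of these, its value was 1.03 with an adjusted p of 0.0656.

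Among 12 amino acid transporters, 11 had values above 0 and 1 was called, with a median of 0.37. Of all genes, 44.7% had values above 0 and 0.111% were called. The called transporter was SLC7A11, which exchanges cystine for glutamate and limits glutathione synthesis. Its signals were 152, 166 and 83.5 at 0.1 µM and 589, 648 and 688 at 1 µM, with a rise of 2.29 ± 0.21 (4.90-fold, adjusted p = 6.13e-09). Its 3 probe sets gave values between 2.16 and 2.29. SLC3A2, the heavy chain with which SLC7A11 forms its transporter, had 666, 693 and 563 and then 875, 948 and 821, and did not pass (0.46 ± 0.16, adjusted p = 0.569). The neutral amino acid carriers SLC38A2 (0.47 ± 0.14) and SLC1A4 (0.81 ± 0.29) did not pass either. Their probe sets ranged from 0.47 to 1.07 for SLC38A2 and from 0.59 to 1.93 for SLC1A4.

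SLC7A11 is also a target of NRF2, the factor of the oxidative stress response. It was the only called gene of 16 on the NRF2 list, where 0.111% of all genes were called, and the list's median was 0.23. The glutamate-cysteine ligase subunit GCLM (0.81 ± 0.40, adjusted p = 0.602), NQO1 (0.24 ± 0.18, adjusted p = 0.674) and the heme oxygenase HMOX1 (-0.08 ± 0.18, adjusted p = 0.9) did not pass. Without replicate 3 of the 0.1 µM group the median of the list was 0.01, while SLC7A11 remained at 1.99 ± 0.20.

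Among 15 aminoacyl-tRNA synthetases, which charge tRNAs, limma called 0, with 5 higher and 0 lower at an unadjusted p under 0.05, where 3.31% and 4.87% of all genes were. The list's median was 0.40 and 11 members were above 0. AARS1 for alanine (0.64 ± 0.17, adjusted p = 0.272), IARS1 for isoleucine (0.58 ± 0.16) and GARS1 for glycine (0.56 ± 0.17) were the members with the smallest p. For endoplasmic reticulum chaperones, the targets of the unfolded protein response, limma called 0 of 20, with 2 higher and 1 lower at an unadjusted p under 0.05 and a median of 0.24. HERPUD1, which takes part in degrading misfolded proteins, had the smallest p of them (0.79 ± 0.19, adjusted p = 0.113). That median fell to 0.01 without replicate 3 of the 0.1 µM group, while those of the synthetases (0.34), amino acid synthesis (0.45), transporters (0.39) and stress factors (0.62) stayed above the 0.00 of all genes.

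Taken over the 63 different measured genes of the 4 lists on stress factors, synthesis, transport and tRNA charging, 9 were called and 50 lay above 0, with a median of 0.43, where 0.111% of all genes were called, 44.7% lay above 0 and the median was -0.07. These 9 made up part of the 16 called higher genes, and 0 of the 4 called lower genes were on these lists.

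**Figure D3:**
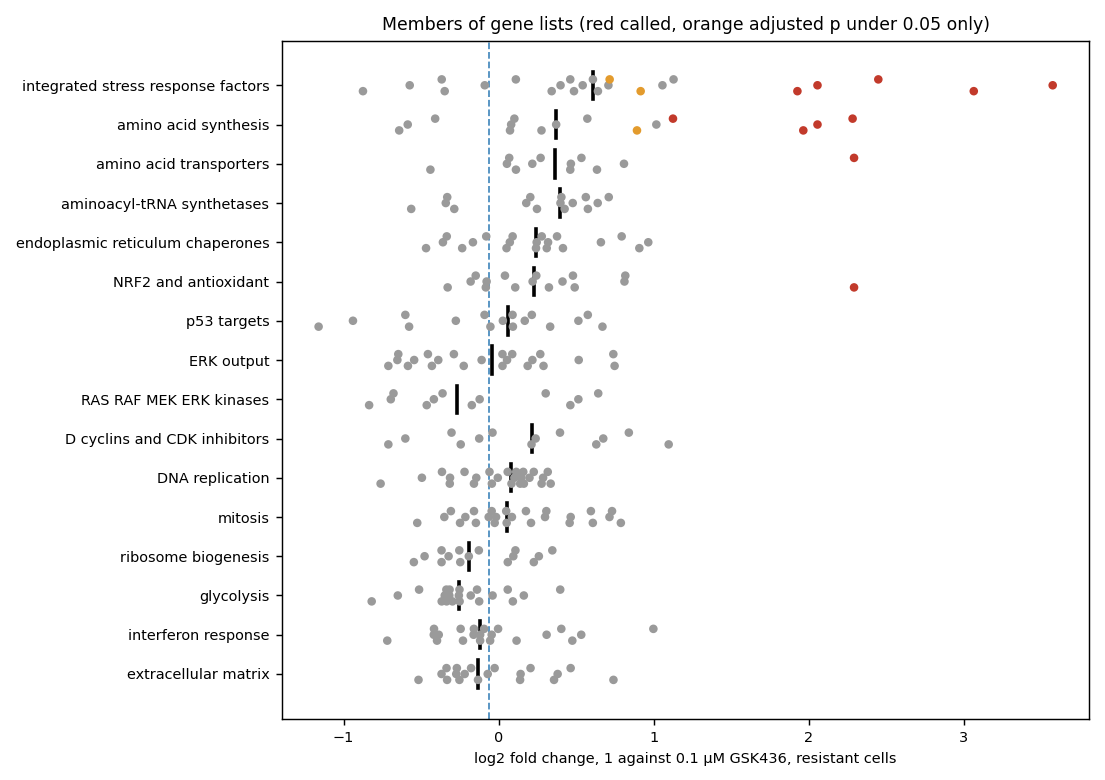
Log2 fold change between 1 and 0.1 µM GSK436 in resistant cells (x axis) for each measured member of 16 gene lists (rows). Red points were called, orange points had an adjusted p under 0.05 only, black bars are list medians and the dashed line is the median of all genes at -0.07. Red points appear in the lists of stress factors, amino acid synthesis, amino acid transport and NRF2, and the bars of ERK output, mitosis and DNA replication lie near the dashed line.

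The other called genes belonged to no list of stress genes. FKBP9, a prolyl isomerase of the endoplasmic reticulum, rose by 1.11 ± 0.16 (adjusted p = 0.000175), from 383, 533 and 523 to 1109, 1019 and 956. Without replicate 1 of the 0.1 µM group its value was 0.96, which is under the fold threshold. PAPPA2, a protease that cleaves binding proteins of insulin-like growth factors, had 22.5, 21.5 and 74.1 at 0.1 µM and 130, 140 and 116 at 1 µM (1.86 ± 0.33, adjusted p = 0.00305). Its 4 probe sets ranged from -0.38 to 1.86, and 2 of them had the opposite sign. Its adjusted p was 0.0514 and 0.058 without replicate 1 and replicate 2 of the 0.1 µM group.

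The matrix genes ECM2 (2.34 ± 0.45, adjusted p = 0.00908) and EFEMP1, which encodes fibulin-3 (1.28 ± 0.25, adjusted p = 0.011), were called higher. EFEMP1 had 258, 193 and 145 and then 489, 460 and 471, with 2 probe sets at 1.09 and 1.28, and ECM2 had 28.7, 40.9 and 11.4 and then 146, 116 and 141. The arrays did not overlap for either gene, but neither was called without replicate 3 of the 0.1 µM group (ECM2 at 1.88 and EFEMP1 at 1.07, both with an adjusted p of 0.19), nor without replicate 1 or replicate 3 of the 1 µM group. EFEMP1 was also not called without replicate 2 of the 0.1 µM group (adjusted p = 0.0505). INTU, a planar cell polarity gene needed for cilia, and SEL1L3 passed narrowly. INTU had 9.21, 15.1 and 2.32 at 0.1 µM and 47.1, 37.0 and 33.6 at 1 µM (2.01 ± 0.44, adjusted p = 0.0444) and lost its call without any 1 array other than replicate 2 of the 0.1 µM group. SEL1L3 (1.22 ± 0.25, adjusted p = 0.0295) had 4 probe sets, 2 of them with the opposite sign, and was not called without replicate 3 of the 0.1 µM group or without any 1 of the 1 µM arrays.

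ECM2 and EFEMP1 were not on the list of extracellular matrix genes, which had 0 of 19 members called by limma (1 higher and 0 lower at an unadjusted p under 0.05, median -0.13). Of all genes, 0.111% were called, and 3.31% and 4.87% were higher and lower at that unadjusted p. DDR2, a receptor tyrosine kinase activated by collagen, and NIBAN1, a stress-induced gene, passed adjusted p but not the fold threshold (0.86 ± 0.19, adjusted p = 0.0444, and 0.78 ± 0.14, adjusted p = 0.00527). DDR2 had 294, 310 and 240 at 0.1 µM and 525, 542 and 469 at 1 µM, and 2 of its 4 probe sets had the opposite sign.

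Of the 4 genes called lower at 1 µM, LRRC15, MST1 and C5orf46 had low signals and PTPRR a moderate one. LRRC15, a leucine-rich repeat membrane protein, had 26.6, 31.1 and 80.6 at 0.1 µM and 4.42, 2.32 and 1.18 at 1 µM. The groups did not overlap, and LRRC15 fell by 3.05 ± 0.51 (adjusted p = 0.00205), but the 1 µM signals lie near the 2.8 added before the logarithm, and the fold depends on that constant. It kept its call without replicate 3 of the 0.1 µM group, its highest array, with -2.58 and an adjusted p of 0.0496. MST1, which encodes macrophage-stimulating protein, the ligand of the receptor MST1R, went from 42.0, 33.3 and 70.7 to 11.7, 2.71 and 9.19 (-2.32 ± 0.45, adjusted p = 0.0111). Its other probe set gave -0.13, and it was not called without replicate 3 of the 0.1 µM group (-2.03, adjusted p = 0.19) or replicate 2 of the 1 µM group (-1.90, adjusted p = 0.223).

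C5orf46 had 29.0, 37.0 and 37.3 at 0.1 µM and 3.47, 24.1 and 4.90 at 1 µM (-1.76 ± 0.38, adjusted p = 0.0348), and lost its call without any 1 array other than replicate 2 of the 1 µM group. PTPRR, a tyrosine phosphatase that binds and inactivates ERK, had 118, 137 and 142 at 0.1 µM and 64.1, 62.4 and 31.6 at 1 µM. Its groups did not overlap and it fell by 1.34 ± 0.25 (adjusted p = 0.00849). The second probe set of PTPRR gave 0.04, and the gene was not called without replicate 2 (adjusted p = 0.0505) or replicate 3 (adjusted p = 0.0737) of the 0.1 µM group or replicate 3 of the 1 µM group (adjusted p = 0.209). NREP, a gene of neuronal regeneration, passed adjusted p with a smaller fall of 0.69 ± 0.15 (adjusted p = 0.0348), from 62.2, 82.9 and 74.5 to 45.1, 47.3 and 40.0.

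The genes next in line on the lower side, by p among those whose arrays did not overlap, were not called. The splicing factor gene U2AF2 came nearest, with 1472, 2162 and 2033 at 0.1 µM and 1197, 1270 and 982 at 1 µM (-0.70 ± 0.16, adjusted p = 0.0607). The zinc receptor gene GPR39 had 83.1, 89.3 and 104 and then 13.7, 43.6 and 70.5 (-1.31 ± 0.33, adjusted p = 0.218), and the matrix metalloproteinase gene MMP28 had 66.0, 53.3 and 132 and then 29.2, 29.6 and 14.2 (-1.63 ± 0.43, adjusted p = 0.25). The kinase gene HIPK4, the channel gene PKD2L1, ZBTB3, the aldehyde dehydrogenase gene ALDH3B1 and the antisense RNAs TMEM147-AS1 and CLYBL-AS2 lay between -1.20 and -2.70, with adjusted p values of 0.185 to 0.272. The other probe set gave 1.19 for GPR39, 0.008 for ZBTB3 and 0.002 for TMEM147-AS1. For U2AF2 and MMP28, 1 of 4 probe sets each had the opposite sign.

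The list of ERK output genes, which report the activity of the drug's own pathway, had 0 of 22 members called by limma, with 0 higher and 4 lower at an unadjusted p under 0.05, where 3.31% and 4.87% of all genes were. Since 0.111% of all genes were called, 0 calls in a list of this size says little about these genes. The list's median was -0.04, against -0.07 for all genes. The 4 members were the cyclin D1 gene CCND1 (-0.71 ± 0.30), the AP-1 factor FOSL1 (-0.65 ± 0.29), MAFF (-0.43 ± 0.20) and the early-response gene IER3 (-0.39 ± 0.18), each with an adjusted p of 0.602. CCND1 had 2069, 2654 and 4177 at 0.1 µM and 1828, 1712 and 1666 at 1 µM, with no overlap. DUSP6, the phosphatase that inactivates ERK and its most direct transcript readout, had 1190, 1395 and 1864 at 0.1 µM and 1036, 1000 and 774 at 1 µM. Its arrays did not overlap, and its difference of -0.65 had a 95% interval from -1.82 to 0.52, so that neither no change nor a fall of more than 1 on the log2 scale was outside it. That interval uses the spread pooled over all 14 groups, which include resistant arrays with GSK212 where DUSP6 was as low as 4.60. It is not the spread of these 6 arrays alone. The 3 probe sets of DUSP6 ranged from -0.65 to 0.51, and 1 of them had the opposite sign.

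DUSP4, a second ERK phosphatase, had 640, 533 and 767 and then 465, 419 and 518 (-0.46 ± 0.30, adjusted p = 0.642). Its 3 probe sets ranged from -0.46 to 0.29, and 1 of them had the opposite sign. Feedback inhibitors of the Sprouty family had values on both sides of 0, with SPRY2 at 0.74 ± 0.72 (267, 203 and 84.3, then 251, 282 and 310) and SPRY4 at 0.09 ± 0.87. MYC had 960, 732 and 314 at 0.1 µM and 861, 1065 and 1150 at 1 µM (0.75 ± 0.62). For SPRY2 and MYC the lowest 0.1 µM value was that of replicate 3. Without that array the median of the ERK output list was -0.28, with 0 called. After centring each array on its median the list stood at 0.13 and all genes at 0.11.

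**Figure D4:**
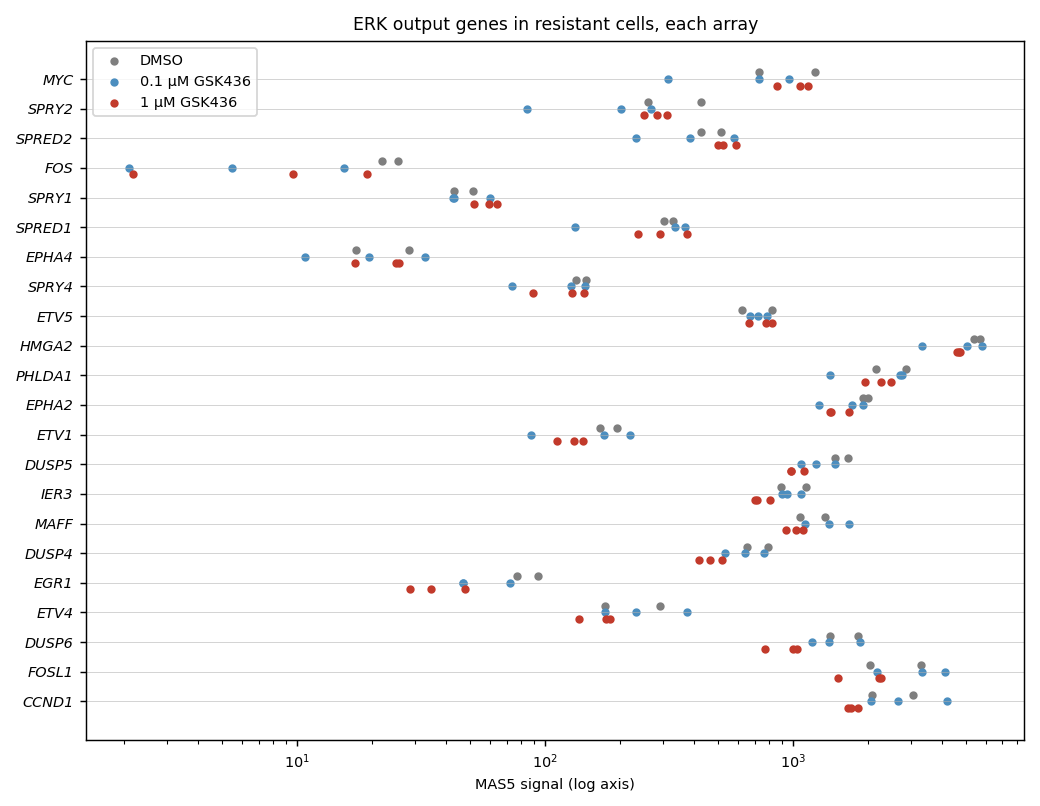
Signal on each array (x axis, log scale) for the 22 measured ERK output genes (rows, ordered by the dose step) in resistant cells with DMSO (grey, 2 arrays), 0.1 µM GSK436 (blue, 3 arrays) and 1 µM GSK436 (red, 3 arrays). Red and blue points are apart for CCND1, DUSP6, DUSP4, MAFF and IER3, with red lower, and they are mixed for most other genes.

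Genes that carry the ERK signal were measured for 12 members of the RAS, RAF, MEK and ERK list. Limma called 0, with 2 higher and 4 lower at an unadjusted p under 0.05 and a median of -0.27. Of all genes, 0.111% were called, and 3.31% and 4.87% were higher and lower at that unadjusted p. ARAF (-0.68 ± 0.26), the MEK gene MAP2K2 (-0.70 ± 0.30), HRAS (-0.46 ± 0.21) and the adaptor gene GRB2 (-0.36 ± 0.15) were on the lower side, and the exchange factor SOS2 (0.64 ± 0.27) and the RAF activator SHOC2 (0.51 ± 0.23) on the higher side. That median was -0.09 without replicate 3 of the 0.1 µM group and -0.10 after centring. The other probe set of ARAF gave 0.87. For GRB2 1 of 3 probe sets had the opposite sign, and for SOS2 2 of 5.

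Cell cycle lists showed no calls. Limma called 0 of 25 DNA replication genes (0 higher and 2 lower at an unadjusted p under 0.05, median 0.08) and 0 of 25 mitosis genes (3 higher and 0 lower, median 0.05). Of all genes, 0.111% were called, and 3.31% and 4.87% were higher and lower at that unadjusted p. Since 0 calls in a list of this size is near that share, it says little about these genes. CDKN1A, the inhibitor p21, was the cell cycle gene with the smallest p, with 756, 708 and 852 at 0.1 µM and 445, 559 and 520 at 1 µM. Its arrays did not overlap, but its difference of -0.60 ± 0.16 did not pass (adjusted p = 0.257). Of 16 p53 targets, which include CDKN1A, limma called 0 (1 higher and 3 lower, median 0.06), of 21 glycolysis genes 0 (0 higher and 2 lower, median -0.26) and of 21 interferon response genes 0 (2 higher and 1 lower, median -0.12). ULK1, a kinase that starts autophagy, stood at 1.36 ± 0.42 (adjusted p = 0.448) and ID1, a target of BMP signals, at 0.90 ± 0.32 (adjusted p = 0.569), neither of them called.

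The 2 resistant DMSO arrays show where on the dose range the changes lay. At 0.1 µM GSK436 against DMSO 1 gene was called (0.00554%), and at 1 µM against DMSO 14 were called (0.0775%), 13 higher (0.072%) and 1 lower (0.00554%). These comparisons share the DMSO arrays with each other, and each shares 3 arrays with the dose step, so their values stand side by side without a test between them. ASNS had 763 and 700 with DMSO, which was -0.03 ± 0.15 at 0.1 µM and 1.94 ± 0.15 at 1 µM. DDIT4 (269 and 279 with DMSO) was -0.49 ± 0.23 at 0.1 µM and 1.96 ± 0.23 at 1 µM, and SLC7A11 (125 and 146) was -0.07 ± 0.23 and 2.22 ± 0.23.

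NUPR1 (136 and 88.8 with DMSO) was 0.29 ± 0.24 at 0.1 µM and 2.22 ± 0.24 at 1 µM, CTH (79.9 and 103) was 0.07 ± 0.34 and 2.13 ± 0.34, and PHGDH (643 and 420) was 0.06 ± 0.22 and 1.19 ± 0.22. For these 6 genes the 0.1 µM value did not pass and the 1 µM value did. INHBE differed between the DMSO arrays themselves, which had 20.3 and 1.61. CHAC1 (8.01 and 16.6 with DMSO) was -0.33 ± 0.70 and 3.25 ± 0.70, and the latter did not pass (adjusted p = 0.0521). The gene called at 0.1 µM was LURAP1L, an adaptor-like gene, with 8.24 and 1.74 with DMSO, 30.7, 35.1 and 50.9 at 0.1 µM and 44.7, 38.4 and 39 at 1 µM. It was higher at both doses (2.53 ± 0.35 and 2.62 ± 0.35) and stood at 0.09 ± 0.31 in the dose step. The number called at 0.1 µM was 5 without replicate 1 of the DMSO group and 2 without replicate 1 or replicate 2 of the 0.1 µM group.

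Of the genes called lower in the dose step, PTPRR (156 and 138 with DMSO) was -0.15 ± 0.28 at 0.1 µM and -1.49 ± 0.28 at 1 µM, the latter called. LRRC15 (14.8 and 29.2 with DMSO) was 0.88 ± 0.57 and -2.17 ± 0.57, MST1 (29.8 and 8.42) was 1.36 ± 0.50 and -0.96 ± 0.50, and C5orf46 (21.1 and 26.4) was 0.49 ± 0.42 and -1.28 ± 0.42, none of them called. Against DMSO, the median of the ERK output list was -0.22 at 0.1 µM and -0.32 at 1 µM, with all genes at 0.10 and 0.05 and 0 of 22 called by limma at either dose (0 lower at 0.1 µM and 2 lower at 1 µM at an unadjusted p under 0.05, where 0.692% and 0.947% of all genes were). DUSP6 had 1828 and 1412 with DMSO (-0.14 ± 0.64 at 0.1 µM and -0.79 ± 0.64 at 1 µM). The median of the stress factor list was 0.07 at 0.1 µM and 0.63 at 1 µM.

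The same dose step was measured on other arrays, in resistant cells that also received 10 nM GSK212 and in parental cells. None of these arrays is shared. With GSK212 31 genes were called (0.172%), 29 higher (0.161%) and 2 lower (0.0111%), and in parental cells 45 (0.249%), 35 higher (0.194%) and 10 lower (0.0554%). Of the 20 genes called without GSK212, 10 were also called with it (50% of 20 and 32.3% of 31), and 18 had the same sign. In parental cells 6 were also called (30% of 20 and 13.3% of 45), and 17 had the same sign. ASNS, INHBE, NUPR1, PCK2 and PHGDH were called higher in all 3. The number called with GSK212 was 20 without replicate 2 of its 0.1 µM group, and 19 and 16 without replicates 2 and 3 of its 1 µM group. The parental number was 109 without replicate 2 of the 1 µM group. The 2 genes called lower with GSK212 were the pseudokinase gene TRIB2 (35.4, 21 and 18.5, then 2.54, 2.14 and 2.24) and PTX3, a secreted pattern recognition protein (89.1, 94.6 and 107, then 42.6, 55.4 and 32.9). All 4 parental arrays had actin ratios of 23.3 to 37.5, and the part of this in the parental values was not tested.

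**Figure D5:**
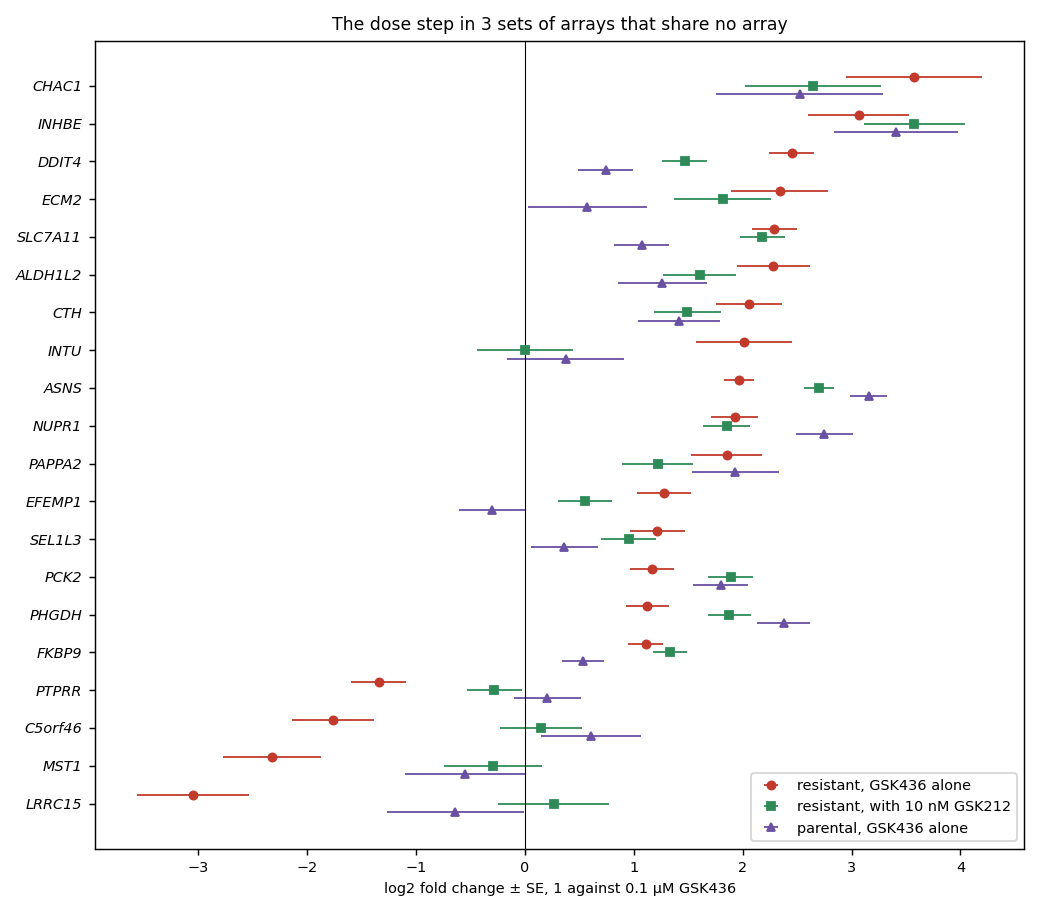
Log2 fold change between 1 and 0.1 µM GSK436 (x axis, bars are standard errors) for the 20 called genes (rows) in resistant cells with GSK436 alone (red circles), resistant cells with 10 nM GSK212 (green squares) and parental cells (purple triangles). The 3 values lie on the same side for most genes that rose, and for the 4 genes that fell the green and purple points lie within 1 of 0.

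In resistant cells with GSK212, ASNS had 878, 555 and 836 at 0.1 µM and 4497, 4983 and 5046 at 1 µM (2.70 ± 0.14), and in parental cells 521 and 661, then 5297 and 5230 (3.16 ± 0.17). The doses were far apart in each set. INHBE went from 140, 75.3 and 102 to 1059, 1335 and 1391 with GSK212 (3.58 ± 0.46) and from 35.5 and 24.7 to 370 and 318 in parental cells (3.41 ± 0.57). NUPR1 rose by 1.85 ± 0.21 with GSK212 and by 2.75 ± 0.26 in parental cells, where it started from 229 and 311 and reached 1726 and 1899. SLC7A11 rose by 2.18 ± 0.21 with GSK212, while its parental value of 1.07 ± 0.25 did not pass (adjusted p = 0.0539), from 315 and 264 to 697 and 533.

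More stress list members were called in those sets than the 5 found with GSK436 alone. Of the 23 stress factors 9 were called with GSK212 and 6 in parental cells, where 0.172% and 0.249% of all genes were called. The medians of the list were 1.05 and 0.78, against -0.01 and -0.02 for all genes. ATF4 rose by 1.01 ± 0.14 with GSK212 (from 3900, 3472 and 3475 to 6868, 7002 and 8068), and DDIT3 rose by 1.18 ± 0.18 with GSK212 and 1.34 ± 0.22 in parental cells. Of the 15 tRNA synthetases 4 were called higher in each set (list medians 0.56 and 0.69), among them GARS1 (1.05 ± 0.17 and 1.48 ± 0.20), SARS1 (1.20 ± 0.17 and 1.51 ± 0.21) and WARS1 (1.52 ± 0.24 and 1.55 ± 0.29). These counts do not show a difference between sets, which was tested gene by gene as the difference in the dose step. With GSK212 that test called 1 gene (0.00554%), NREP, which fell without GSK212 and stood at 0.54 ± 0.15 with it. The number was 3 without replicate 2 of the 1 µM group without GSK212, and 0 without replicate 2 or 3 of the 0.1 µM group or replicate 1 or 3 of the 1 µM group there, without replicate 1 or 3 of the 0.1 µM group with GSK212, or without replicate 2 or 3 of its 1 µM group. For ASNS the difference was -0.74 ± 0.19 (adjusted p = 0.948), and for LRRC15, which had 42.2, 30.4 and 13.7 and then 22.3, 50.6 and 29.1 with GSK212, it was -3.31 ± 0.73 (adjusted p = 0.382).

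Between lines the difference in the dose step was called for 11 genes (0.0609%), 6 with the larger value in resistant cells (0.0332%) and 5 in parental cells (0.0277%). DDIT4 rose more in resistant cells (2.45 against 0.74, difference 1.71 ± 0.32, adjusted p = 0.0233). In parental cells it had 1972 and 1958 at 0.1 µM and 3497 and 3090 at 1 µM, so that its parental level at the lower dose was above the resistant level at the higher dose. ASNS rose more in parental cells (difference -1.19 ± 0.22, adjusted p = 0.0197), as did TRIB3 (0.40 against 1.88, difference -1.48 ± 0.28, adjusted p = 0.0229) and MTHFD2 (0.37 against 1.57, difference -1.19 ± 0.24, adjusted p = 0.0348). TRIB3 in parental cells had 754 and 417, then 2070 and 2062. The number called moved with single arrays. It was 57 without replicate 2 and 3 without replicate 3 of the parental 1 µM group, 22 and 20 without replicates 2 and 3 of the parental 0.1 µM group, 4 without replicate 3 of the resistant 0.1 µM group, and 6 and 3 without replicates 2 and 3 of the resistant 1 µM group.

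The genes called lower in the dose step had no call in the other sets. PTPRR was 193, 174 and 174 and then 140, 156 and 148 with GSK212 (-0.28 ± 0.25), and 135 and 70.4 and then 114 and 112 in parental cells (0.21 ± 0.31). MST1 stood at -0.29 ± 0.45 and -0.55 ± 0.55, C5orf46 at 0.15 ± 0.38 and 0.61 ± 0.46, and LRRC15 at 0.26 ± 0.51 and -0.64 ± 0.63. The tests of these differences did not pass, with an adjusted p of 0.23 for PTPRR, 0.434 for MST1, 0.204 for C5orf46 and 0.376 for LRRC15 between lines. FKBP9 rose with GSK212 (1.33 ± 0.16) and did not pass in parental cells (0.53 ± 0.19, adjusted p = 0.323).

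Levels of ERK output genes stand side by side here without a test between the sets. DUSP6 had 27.3, 4.60 and 17.5 at 0.1 µM and 20.6, 24.0 and 15.8 at 1 µM with GSK212, and 74.2 and 86.3 and then 86.2 and 83.5 in parental cells, all under the 774 to 1864 of the resistant arrays with GSK436 alone. Most other members, among them ETV5, EPHA2 and DUSP5, also had higher means in resistant cells with GSK436 alone than in either other set. A few members with low signals did not share this order. The Sprouty gene SPRY1 had means of 48.5 ± 9.98 and 58.5 ± 6.31 (SD, n = 3) at 0.1 and 1 µM with GSK436 alone and 69.7 ± 4.41 and 67.6 ± 8.04 (SD, n = 3) with GSK212, and the early-response gene EGR1 had 37.0 ± 9.75 and 37.5 ± 14.3 (SD, n = 3) at 1 µM without and with GSK212. The dose step in DUSP6 did not pass in either set (0.46 ± 0.57 and 0.08 ± 0.70). The ERK output list had 0 of 22 called by limma in each, with medians of -0.31 with GSK212 (0 higher and 7 lower at an unadjusted p under 0.05, where 2% and 2.07% of all genes were) and -0.15 in parental cells (0 higher and 3 lower, where 4.46% and 4.62% were). Across all genes the dose step of the resistant arrays correlated with that of the GSK212 arrays at r = 0.07 and with that of the parental arrays at r = 0.01, as a description over 18063 genes that are not independent replicates.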

How the data were processed

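The deposited values were linear signal intensities of 54675 probe sets per array, made by the authors with MAS5 (the submitters' processing notes name the tool and no version). Their trimmed mean was 149.84 to 149.96 on every array, which is what scaling each array to a fixed target gives. No detection calls were used. Growth was in RPMI1640 with serum and RNA was taken with Trizol, per the labels' protocols.

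Probe sets naming 1 gene in the platform annotation (41097, of which 41043 were matched to RefSeq, GRCh38.p14) passed a filter if their signal was above 34.88, the median of all values, on 2 arrays or more (35888). Each gene was read from its brightest probe set on average, which left 18063 genes. A linear model of 14 group means over 38 arrays, with 24 residual degrees of freedom, was fitted to log2(signal + 2.8) with limma 3.58.1 in R 4.3.3 (eBayes with trend), and p was adjusted by Benjamini and Hochberg within each of 7 comparisons. Calls required an adjusted p under 0.05 with a change of 1 or more in log2 units. Groups came from the sample titles. The comparison, the 36 gene lists (548 of 610 members measured) and the tests were chosen with earlier results of these data known.

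Named genes were the called genes whose arrays did not overlap (up to 15 in each direction by fold change, filled to 15 by genes with the smallest p and no overlap, named as not called), all ERK output genes, the 3 members of each other list with the smallest p, and the first 3 called genes in each direction of other comparisons. Further list members, and called genes beyond the first 15, were named after their values were seen. Alternatives changed scaling, pseudocount, filter, probe set summary, variance model, replicate block, actin ratio, array weights, the groups fitted and each array in turn. The fit was tested on simulated data for the dose step in resistant cells, with 200 of 18063 genes changed. For true changes of 1, 1.5, 2 and 2.5 in log2 units, 50 genes each, 24%, 48%, 62% and 82% were called, with 5 false calls. These rates hold for the simulated data only. They may not carry over to the measured arrays, whose weights at the lower dose in resistant cells ran from 0.221 to 7.82. Promoter windows and motifs came from RefSeq tables. Tables were handled with pandas and drawn with matplotlib under Python.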

Additional observations from a re-analysis of the deposited data

Results flagged for a closer look

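A test of the difference itself set 12 results apart, where the dose step differed between resistant and parental cells or between resistant cells without and with GSK212. Values are the resistant step minus the other, from limma, with the adjusted p of that difference. The step was larger in parental cells for 5 genes, MEGF6 (-3.69 ± 0.47, adjusted p = 8.52e-05), TSPO (-1.59 ± 0.30, adjusted p = 0.0233), TRIB3 (-1.48 ± 0.28, adjusted p = 0.0229), MTHFD2 (-1.19 ± 0.24, adjusted p = 0.0348) and ASNS (-1.19 ± 0.22, adjusted p = 0.0197). MEGF6 had 1.56, 2.47 and 3.52 at 0.1 µM and 2.56, 1.77 and 2.66 at 1 µM in resistant cells, and 6.77 and 7.88 and then 98.3 and 157 in parental cells. All but the last pair lay under the 25th percentile of all signals (9.88), at or near the 2.8 added before the logarithm, so the size of its difference is not determined. Its other probe set had a resistant step of -1.06. TSPO, a cholesterol-binding protein of the outer mitochondrial membrane, had 1671, 1596 and 1595 and then 1501, 1347 and 1181 in resistant cells, and 1991 and 1333 and then 3662 and 4483 in parental cells.

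The larger value was in resistant cells for 6 genes, MMAA (3.71 ± 0.56, adjusted p = 0.00153), MANEA (3.67 ± 0.71, adjusted p = 0.0233), CENPF (1.76 ± 0.36, adjusted p = 0.0348), DDIT4 (1.71 ± 0.32, adjusted p = 0.0233), TGFBI (1.49 ± 0.25, adjusted p = 0.00611) and IL7R (1.07 ± 0.21, adjusted p = 0.0292). For 5 of these 6, all but DDIT4, the parental step was below 0. MMAA, a gene of vitamin B12 metabolism, had 41.3, 33.6 and 33.6 and then 40.6, 61.9 and 60.6 in resistant cells, and 109 and 96.5 and then 14.3 and 5.11 in parental cells. MANEA had a mean of 6.6 at 1 µM in parental cells, with a lowest value of 1.23, under the 2.8 added before the logarithm. The parental 1 µM means of MMAA (9.72) and MANEA both lay under the 25th percentile of all signals (9.88). The sizes of the MMAA and MANEA differences are therefore poorly determined. CENPF, a kinetochore protein of dividing cells, had 686 and 1142 and then 503 and 311 in parental cells. In the resistant step, 3 of the 5 probe sets of MMAA and 1 of the 3 of CENPF had the opposite sign. The parental groups had 2 arrays each with actin ratios above 20, and the part of RNA quality in these differences was not tested. With GSK212 the difference was called for NREP (-1.23 ± 0.21, adjusted p = 0.0208), which had 219, 275 and 252 and then 335, 376 and 371 in its presence.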

How the results depend on the processing

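The count of 20 genes in the dose step was 18 with a replicate block and between 15 and 22 when single arrays were left out. It was 8 without arrays of an actin ratio above 20, 5 in a fit of only the 6 arrays compared and 816 with array weights, 19 of the 20 among them. In the 0.1 µM group those weights were by far the largest for replicate 2 (7.82), so the 816 calls lean on that array. Centring and quantile normalization each gave 16, of which 15 were shared. Of 149 genes followed, 20 had a call to reverse, and none of these changed sign where it was measured. The others counted as reversed only if called against their main direction, which none was, and their changes of sign without a call were not counted. The same replicate number did not pair the arrays, whose deviations correlated at -0.10, 0.05 and -0.06, and the replicate block gave 43 in parental cells, 32 with GSK212, 12 for the difference between lines, 1 for the difference with GSK212, and 1 and 15 against DMSO at 0.1 and 1 µM. The block lost 2 calls of the dose step, C5orf46 (adjusted p = 0.0523) and INTU (adjusted p = 0.068).

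The parental count of 45 was 101 with the actin ratio as a covariate, 23 in a fit of only its groups and 31 to 109 when single arrays were left out, and its share of higher genes was 77.8% as deposited and 97.3% centred. The count of 31 with GSK212 was 17 centred, 47 with the actin covariate, 54 with array weights, 47 with only its groups and 16 to 29 without single arrays. The 11 differences between lines were 7 with quantile normalization (85.7% of them higher, against 54.5%), 2 centred, 5 with the mean of all probe sets, 2 without trend, 45 with the actin covariate, 19 with array weights, 0 with only its groups and 3 to 57 without single arrays. The 1 difference with GSK212 was 0 with quantile normalization, centring, a pseudocount at the 25th percentile, the mean of probe sets, only its groups or without arrays of an actin ratio above 20, 6 with the actin covariate, 33 with array weights and 0 to 3 without single arrays. Against DMSO the 1 gene at 0.1 µM was 2 with quantile normalization, 5 with no pseudocount, 20 with array weights, 0 with only its groups or without arrays of an actin ratio above 20, and 1 to 5 without single arrays. The 14 at 1 µM were 25 with array weights and 11 to 14 without single arrays, and 92.9% of calls were higher as deposited and 69.2% centred. Parental cells gave no value without high actin ratios, since all 4 arrays exceed 20. Causes of these shifts were not tested. Signals under the pooled median of 34.88, as for CHAC1, INHBE, INTU, LRRC15 and MST1, give imprecise folds.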
